A study of Ovis aries with 15 samples.

Results

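Complement is a cascade of blood and tissue proteins that marks microbes, and damaged host cells, for removal. C1r and C1s are the proteases that C1q carries to a target and that start the classical route. C3 is the central component on which all routes converge, and factor B forms the protease of the alternative route. Host cells hold the cascade back with factor I, a soluble protease that inactivates C3b and C4b with the help of cofactors, and with proteins of their own surface. Of those surface proteins, CD46 is a cofactor for factor I, CD55 (decay-accelerating factor) takes apart the enzymes that cleave C3, and CD59 blocks the membrane attack complex of the terminal components. Most plasma complement is made by the liver, but epithelial cells, fibroblasts and macrophages also make components, and milk is known to contain complement.

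The 8 genes described here belong to this system and were measured in the ovine mammary gland: C1R, C1S, C3, CFB (factor B), CFI (factor I), CD46, CD55 and CD59, taken by gene symbol from the 24691 features of the deposited table. Of these 8 genes, 7 were listed under their symbol. CD46 was listed only as LOC101122294 and was matched by its NCBI gene number in a RefSeq table. The rule that lists them uses no measured value of the series.

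Parenchyma was biopsied from the mammary glands of Romney ewes at day 135 of gestation, here called late pregnancy, and at day 15 post partum, here called lactation. RNA was pooled across ewes before sequencing, giving 9 late pregnancy libraries and 6 lactation libraries. According to the design text 3 ewes made up each pool of late pregnancy and 2 each pool of lactation, while the study's methods state the same number for all pools, so how many ewes a lactation library stands for is unclear. The ewes themselves were fed alike, and the pools fall into 3 groups by the feed of their dams in early gestation, which was ad libitum (HM), maintenance (MM) or sub-maintenance (LM). All 3 groups had dams on maintenance feed in later gestation, and each group gave 3 late pregnancy and 2 lactation pools. A pool has no value for a single ewe, so the spread given here is that between pools. The ewes were biopsied in both states, and the labels do not say which ewes a pool holds, so libraries of the states may share ewes while the tests treat them as independent.

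Counted reads per library ranged from 6471237 to 16898986 in late pregnancy and from 9014506 to 24001031 in lactation. The 7 milk protein genes took 13.7% to 23.4% of the counted reads of a late pregnancy library and 71.3% to 75.8% of those of a lactation library, so the tissue carried the defining transcripts of the mammary gland. Levels are therefore given as CPM (counts relative to library size) scaled by the TMM method of edgeR, which sets the bulk of genes level between libraries. On this scale the median log2 change of all 13345 genes tested was -0.03. With library size alone it was -1.94, and on log2(RPKM + 1) it was -1.30, where RPKM is the reads per kilobase of exon relative to all reads on genes, so the direction of a small change depends on the scale. Of all genes tested, 68.4% were called different between the states at an adjusted p under 0.05, 33.1% higher and 35.2% lower in lactation, and late pregnancy and lactation libraries had separate ranges for 40.2%.

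All 8 members were tested. The 3 surface regulators (CD55, CD59 and CD46) were higher in lactation with TMM scaling, although CD59 and CD46 turned lower with library size alone and on log2(RPKM + 1). CFI, C1S and C1R were lower in lactation under every scaling tried, and C3 and CFB were not called. For 4 of the 8 members, CD55, CFI, C1S and CD59, every lactation library lay outside the late pregnancy range. The median log2 change of the 8 members was 0.31. With most genes of the tissue called different, 6 of 8 called is near the background share of 68.4%, and 4 of 8 without overlap is near that of 40.2%, so neither count is a result about the members.

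**Figure D1:**
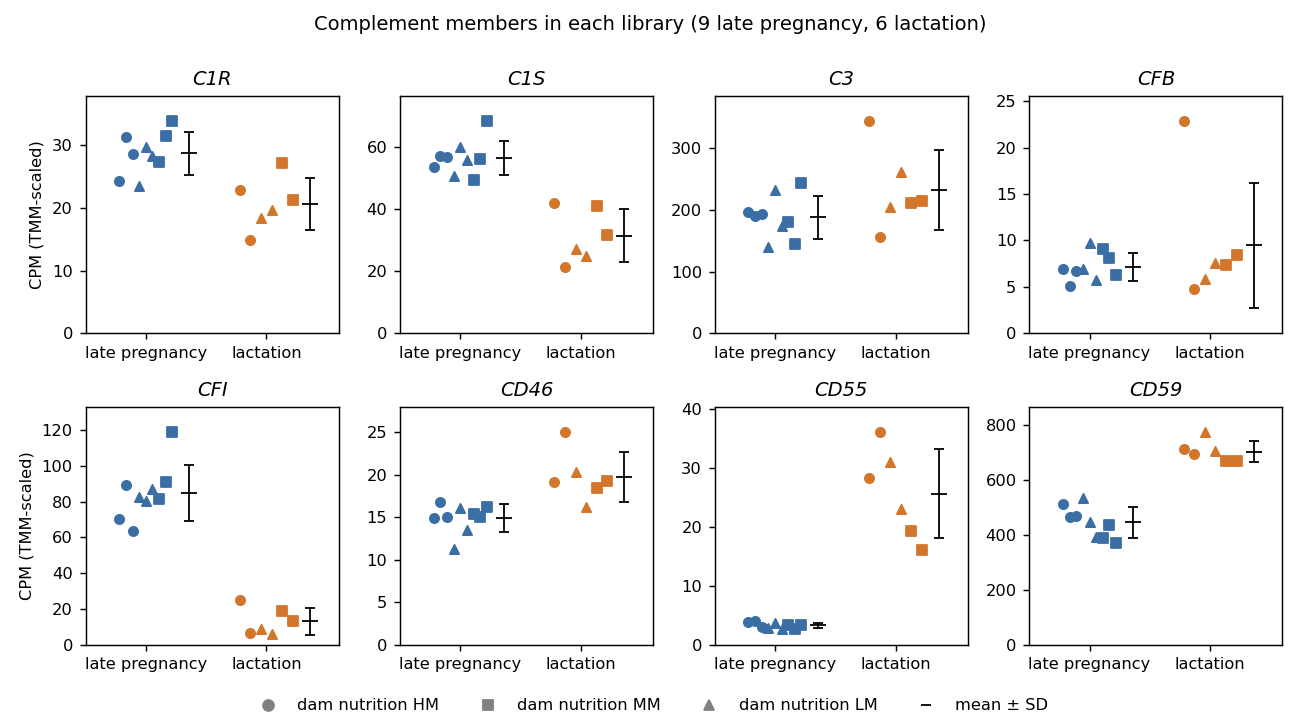
TMM-scaled CPM (vertical axes, from 0) of the 8 complement members in each library, by state (horizontal axes), with late pregnancy in blue (n = 9) and lactation in orange (n = 6), symbols for the dam nutrition group, and the mean ± SD beside each state. CD55 and CFI show the widest separation, and CFB in lactation holds 1 library at 22.9 CPM above the rest; with library size alone CD46 and CD59 turned lower in lactation.

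The C1r and C1s proteases were the classical members. C1R lies on chromosome 3 from 207307762 to 207336479 of the Oar assembly used in the files, and its neighbour C1S begins 19788 bases further on, at 207356267, and ends at 207367619. C1S ranged from 49.4 to 68.4 CPM in late pregnancy with a median of 56.2, and from 21.5 to 42.0 CPM in lactation with a median of 29.5. All 6 lactation libraries lay below the lowest late pregnancy library. C1S fell by 0.84 on the log2 scale with an SE of 0.12 (edgeR quasi-likelihood test, adjusted p = 3.22e-06), a level 1.79-fold lower in lactation.

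C1R ranged from 23.4 to 33.8 CPM in late pregnancy with a median of 28.5, and from 14.9 to 27.1 CPM in lactation with a median of 20.4. Of the lactation libraries, 5 of 6 lay below every late pregnancy library, and the MM pool 1 lactation library lay among them. The log2 change of C1R was -0.45 with an SE of 0.11 (edgeR, adjusted p = 9.43e-04). In the libraries with lane 7 in their column name the change of C1R was -0.37 with an adjusted p of 0.0857, and in those with lane 8 it was -0.54 with an adjusted p of 0.00203. Lane 7 stood in the names of 4 late pregnancy and 3 lactation libraries, and lane 8 in those of 5 and 3. The labels state that the reads of 2 lanes were combined for each library, so the lane in the name is not a batch by itself. All LM pools had lane 8 in the name, so this split also divides the dam nutrition groups. The other 5 called members kept their calls in both subsets, with C1S at -0.63 and -1.05, CFI at -2.32 and -3.15, CD46 at 0.42 and 0.38, CD55 at 2.99 and 2.93, and CD59 at 0.62 and 0.70 with TMM scaling.

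The annotated exons of C1R held only part of its signal. They took 19.8% ± 2.10 (SD, n = 9) of the reads on the whole gene in late pregnancy and 20.6% ± 3.23 (SD, n = 6) in lactation, against a median of 82.9% over the 12740 tested genes with a transcript in late pregnancy. With the reads on the whole gene, C1R ranged from 132 to 151 CPM in late pregnancy and from 90.5 to 108 CPM in lactation, with no overlap. The log2 change of C1R was then -0.55 with an SE of 0.05 (adjusted p = 1.37e-08), beside 68.6% of all genes called with whole-gene reads.

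C3 is the component that every route cleaves. It was listed on an unplaced scaffold (positions 4 to 16828), while LOC101108131, on chromosome 5 from 15426787 to 15461357, carries the NCBI gene number that current RefSeq gives to C3. Reads were shared between places of the genome for both features. Of the exon reads, 67.9% were uniquely placed for C3 and 73.2% for LOC101108131 in late pregnancy, whereas for every other member the mean share was at least 99.6%, so the level of the C3 gene is uncertain by that amount.

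C3 ranged from 140 to 244 CPM in late pregnancy with a median of 190 CPM, and from 156 to 344 CPM in lactation with a median of 213 CPM. The ranges overlapped, with 2 of 6 lactation libraries above every late pregnancy library. The log2 change of C3 was 0.30 with a 95% interval from 0.00 to 0.59 (edgeR, adjusted p = 0.0681), and C3 was not called. LOC101108131 gave -0.15 with an interval from -0.48 to 0.18 (adjusted p = 0.404), and the sum of both features gave 0.04 with an interval from -0.27 to 0.34 (adjusted p = 0.837).

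Single libraries decided the call of C3. Without the HM pool 2 lactation library the change of C3 was 0.39 (adjusted p = 0.016), without the LM pool 2 late pregnancy library it was 0.34 (adjusted p = 0.0421), and without the MM pool 3 late pregnancy library it was 0.35 (adjusted p = 0.0321). Without the HM pool 1 lactation library LOC101108131 fell by 0.34 on the log2 scale (adjusted p = 0.0331). C3 was called higher, and LOC101108131 lower, each with other libraries left out. With all libraries kept, LOC101108131 was also called lower by limma on quantile-normalized RPKM, at -0.48 (adjusted p = 0.0167).

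Factor B, from CFB on chromosome 20 (26543624 to 26549681, with C2 starting 388 bases further on), was last of the members by mean RPKM in each state, but its range overlapped that of CD55 in late pregnancy (4.19 ± 1.01 against 4.23 ± 0.67 RPKM, SD, n = 9) and that of CFI in lactation (1.62 ± 1.21 against 2.65 ± 1.63 RPKM, SD, n = 6). CFB ranged from 5.12 to 9.70 CPM in late pregnancy with a median of 6.91, and from 4.75 to 22.9 CPM in lactation with a median of 7.46. The HM pool 1 lactation library held 22.9 CPM, and the other lactation libraries held 4.75 to 8.46 CPM, inside or just below the late pregnancy range. CFB gave a log2 change of 0.32 with a 95% interval from -0.20 to 0.83 (edgeR, adjusted p = 0.261). Without that library it was -0.08 (adjusted p = 0.702).

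Factor I showed the largest decrease of the 8 members. CFI lies on chromosome 6 from 15709202 to 15753214 and has 15 exons in the files. It ranged from 63.5 to 119 CPM in late pregnancy with a median of 82.6, and from 6.09 to 24.8 CPM in lactation with a median of 11.01. Every lactation library was below every late pregnancy library by a wide margin. CFI had a log2 change of -2.69 with an SE of 0.22 (edgeR, adjusted p = 1.55e-09), a level 6.47-fold lower in lactation. The lactation libraries differed among themselves more than the late pregnancy libraries in proportion to their level, from 6.09 CPM in LM pool 2 and 6.33 CPM in HM pool 2 to 18.8 CPM in MM pool 1 and 24.8 CPM in HM pool 1.

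The surface regulator CD55 showed the largest increase. CD55 lies on chromosome 12 from 4582491 to 4600516. It ranged from 2.59 to 4.02 CPM in late pregnancy with a median of 3.23, on 41 to 106 exon reads per library. In lactation it ranged from 16.0 to 36.04 CPM with a median of 25.7, on 121 to 228 exon reads. All lactation libraries were above all late pregnancy libraries. The log2 change of CD55 was 2.98 with an SE of 0.15 (edgeR, adjusted p = 1.34e-12), a 7.87-fold higher level, and it was the only member that stayed higher with library size alone, by 1.07 on the log2 scale, and on log2(RPKM + 1).

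CD59 was the most abundant member per length. It lies on chromosome 15 from 62538416 to 62564166, and ranged from 369 to 536 CPM in late pregnancy with a median of 447, and from 668 to 774 CPM in lactation with a median of 699. The ranges did not overlap, and the lactation libraries were close to each other. CD59 rose by 0.66 on the log2 scale with an SE of 0.08 (edgeR, adjusted p = 1.95e-07) with TMM scaling, a 1.58-fold higher level, whereas with library size alone CD59 fell by 1.24.

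CD46 lies on chromosome 12 from 73700586 to 73737242, on the same chromosome as CD55 but 69100070 bases away. It ranged from 11.2 to 16.8 CPM in late pregnancy with a median of 15.1, and from 16.2 to 25.0 CPM in lactation with a median of 19.2. In 5 of 6 lactation libraries CD46 was above every late pregnancy library. CD46 rose by 0.41 on the log2 scale with an SE of 0.09 (edgeR, adjusted p = 7.48e-04) with TMM scaling, whereas with library size alone CD46 fell by 1.504. Relative to the median of all genes, CD46 was 0.44 and CD59 0.69 higher with TMM, 0.43 and 0.70 higher with library size alone, and 0.07 and 0.18 higher on log2(RPKM + 1).

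Per exon length, the order of the members in late pregnancy was CD59, C3, CFI, C1S, C1R, CD46, CD55 and CFB, by mean RPKM within the state. CD59 stood at 361 RPKM ± 36.02 (SD, n = 9), C3 at 142 ± 30.1, CFI at 58.8 ± 13.0 and C1S at 28.6 ± 3.90. C1R at 18.1 ± 2.85 and CD46 at 13.7 ± 1.92 overlapped in range, although C1R was above CD46 in all 9 libraries. CD55 at 4.23 ± 0.67 and CFB at 4.19 ± 1.01 did not differ beyond their spread, CD55 being the higher in 5 of 9 libraries.

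In lactation the order was CD59, C3, CD55, CD46, C1S, C1R, CFI and CFB. CD59 stood at 166 RPKM ± 9.99 (SD, n = 6) and C3 at 51.1 ± 15.7. From CD55 at 9.70 ± 2.74 downwards, each gene overlapped in range with the next, with CD46 at 5.24 ± 0.71, C1S at 4.65 ± 1.46, C1R at 3.79 ± 0.92, CFI at 2.65 ± 1.63 and CFB at 1.62 ± 1.21. CFI thus went from the third place to the seventh, and CD55 from the seventh to the third. RPKM is relative to all reads including those of milk protein genes, so its values are compared here only within a state, and the RPKM of C1R and C3 carry the limits of annotation and shared reads given above.

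**Figure D2:**
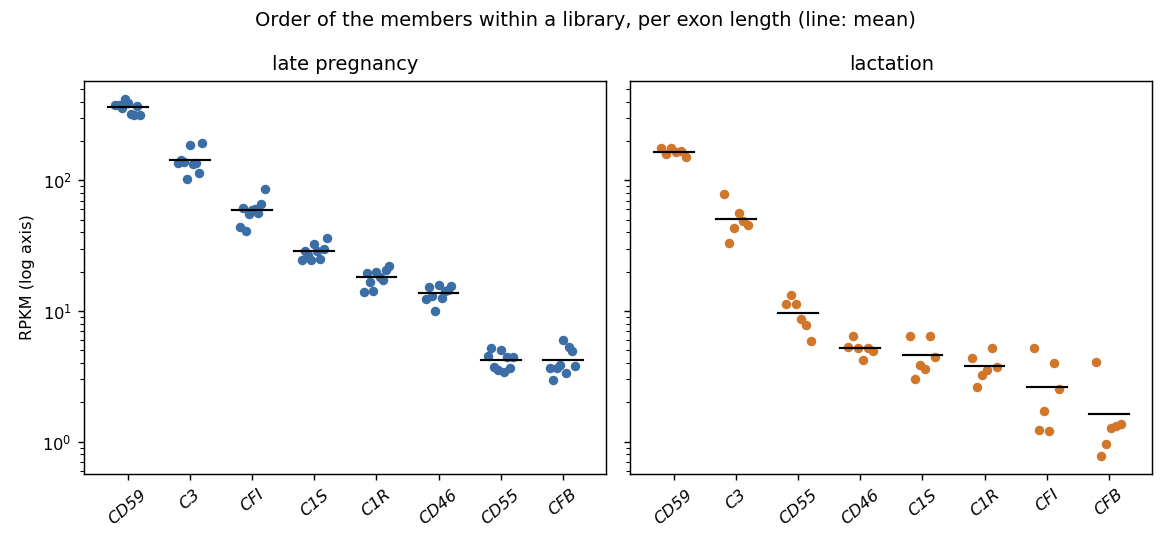
RPKM of the members in late pregnancy (left, 9 libraries) and lactation (right, 6 libraries) on a shared log axis, with genes ordered by their mean (line) within the state and 1 point per library. CFI moves from the third place in late pregnancy to the seventh in lactation and CD55 from the seventh to the third, while CD59 and C3 lead in each state.

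A ratio of 2 genes within a library does not depend on how libraries are scaled, so all 28 pairs of members were compared between the states. For 22 of the 28 pairs the mean log2 RPKM ratio differed (exact two-sided permutation test, adjusted over 28 pairs, smallest possible p = 0.0004), and for 18 pairs (64.3%) the ratios of the states did not overlap. Over all 81478995 pairs of the 12766 tested genes with reads in every library, 40.7% had no overlap. Every pair with CFI or CD55 was among the 18 pairs, and the pairs share genes. The share of all gene pairs past the permutation threshold was not computed. The members were chosen with earlier results of these data known. The counts of pairs are therefore a description and not a result about the members as a set. The widest shift was that of CFI to CD55. In late pregnancy there was 13.8 times as much CFI as CD55 per length, and in lactation 0.24 times as much, a shift of -5.83 on the log2 scale (exact permutation test, adjusted p = 0.0006).

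The ratio of factor I to its cofactor CD46 went from 4.24 to 0.43, and that of C3 to CFI from 2.43 to 21.8 (exact permutation test, adjusted p = 0.0006 for each). C1R and C1S fell together but not equally, their ratio going from 0.63 to 0.83, a shift of 0.40 (exact permutation test, adjusted p = 0.0021). That comparison rests on the annotated exons of C1R.

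With all libraries kept, the 6 pairs whose ratio was not past the threshold were all those among C3, CFB, CD46 and CD59. The shift of C3 to CFB was 0.06 (exact permutation test, adjusted p = 0.792), that of C3 to CD46 was -0.12 (adjusted p = 0.600) and that of CD46 to CD59 was -0.27 (adjusted p = 0.108). In the same test C3 to CD59 gave -0.39 (adjusted p = 0.0905), CFB to CD59 -0.45 (adjusted p = 0.1745) and CFB to CD46 -0.18 (adjusted p = 0.6075). Without the HM pool 1 lactation library, C3 to CD59 and CFB to CD59 were past the threshold. Without the LM pool 1 late pregnancy library, C3 to CD59 and CD46 to CD59 were. C3 and CFB were not called and CD46 and CD59 were called higher on CPM. With all libraries kept, the difference between these genes was not itself past a test. CD55 rose relative to each of the other 7 members, the log2 ratio of CD55 to CD59 shifting by 2.28 and that of CD46 to CD55 by -2.55 (exact permutation test, adjusted p = 0.0006 for each).

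**Figure D3:**
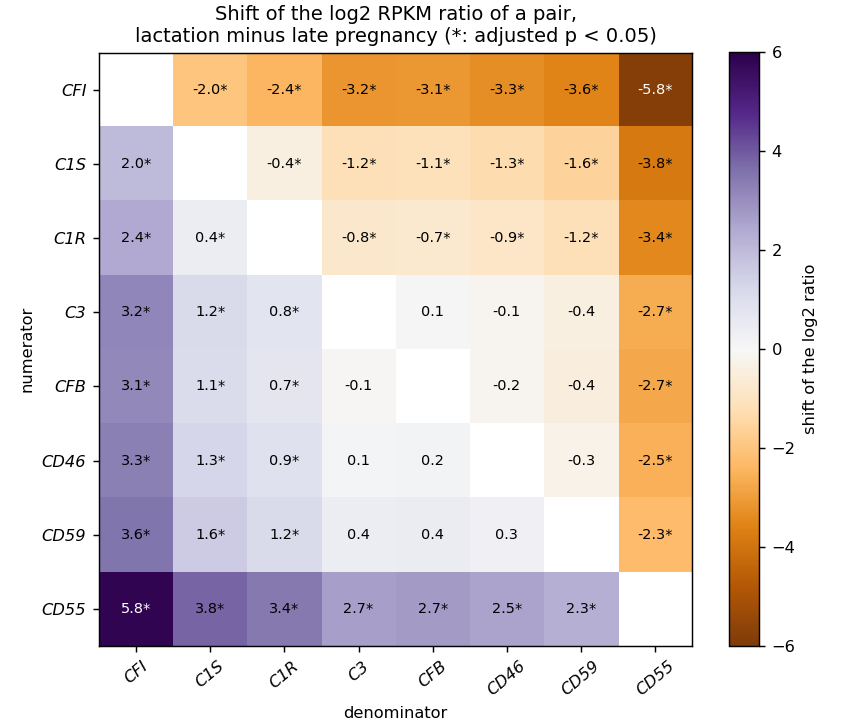
Shift of the mean log2 RPKM ratio of each pair of members, lactation minus late pregnancy, with the numerator gene in rows and the denominator in columns. The row of CFI is negative and that of CD55 positive throughout, with stars for an adjusted p under 0.05, and the block of C3, CFB, CD46 and CD59 holds shifts between -0.45 and 0.45 without a star.

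Reads on introns give a separate readout of the same genes. Of all genes tested with intron reads, 58.0% were called. CD55 rose by 2.70 with an SE of 0.14 (edgeR, adjusted p = 3.78e-14) and CD46 by 0.37 (adjusted p = 7.90e-04), close to their values on exon reads. C1S fell by 1.47 (adjusted p = 3.56e-05) on 13 to 42 intron reads per library in late pregnancy and 1 to 8 in lactation. C1R fell by 0.64 (adjusted p = 2.71e-07), but most of its reads lie outside the annotated exons, so reads on introns and on exons missing from the annotation cannot be told apart for it.

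For CFI, CD59 and both C3 features the 95% intervals of intron and exon reads did not overlap. CFI fell by 1.14 with a 95% interval from -1.79 to -0.50 (edgeR, adjusted p = 0.00291), a smaller decrease than the -2.69 of its exon reads, and exon reads made up 97.0% ± 1.24 (SD, n = 9) of the whole-gene reads in late pregnancy and 89.6% ± 7.06 (SD, n = 6) in lactation. CFI had 10 to 113 intron reads per late pregnancy library and 2 to 14 per lactation library. C3, not called on exon reads, fell by 1.00 with an interval from -1.57 to -0.43 (adjusted p = 0.00351), with 30 to 134 intron reads per late pregnancy library and 4 to 31 per lactation library. LOC101108131 gave -1.07 with an interval from -1.56 to -0.58 (adjusted p = 4.36e-04). CD59 was 0.18 with an interval from -0.05 to 0.41 (adjusted p = 0.170). CFB had at most 5 intron reads in a library and was not tested. Intron reads were scaled by TMM factors of their own, so each change is relative to the genes tested with that kind of read. The differences between the kinds of read were not tested.

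**Figure D4:**
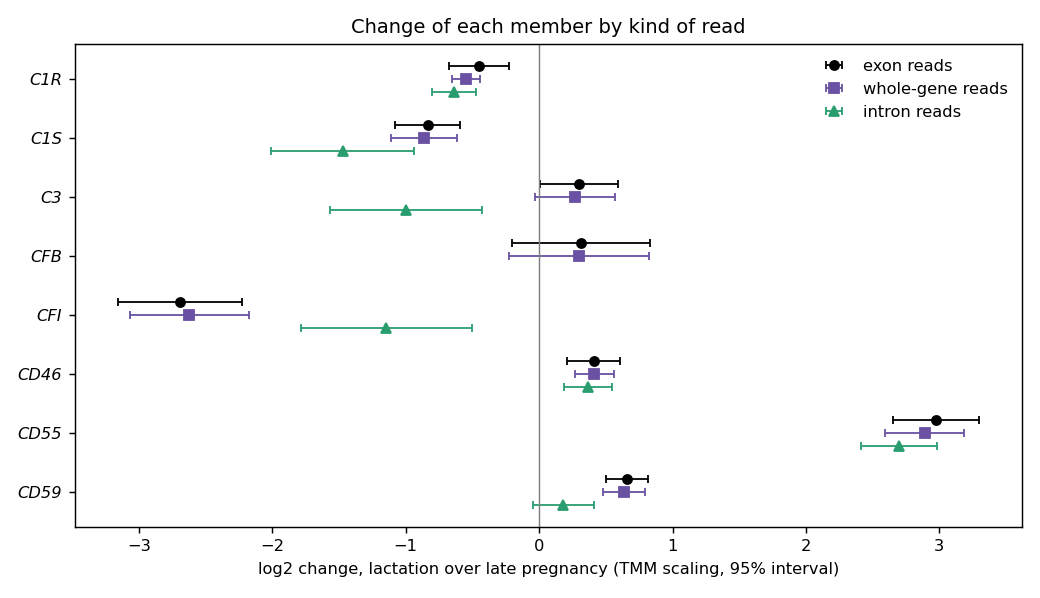
Log2 change of each member from late pregnancy to lactation (horizontal axis, with 95% intervals) from reads on exons, on the whole gene and on introns, with TMM scaling done apart for each kind of read. The 3 kinds of read lie together for CD46 and CD55. The intron intervals of C3 and CD59 lie below, and that of CFI above, the intervals of their exon reads. The intron reads of C1S lie lower than its exon reads, with overlapping intervals. With library size alone the exon reads of CD46 and CD59 turned lower.

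Within a state, several members varied together, those that fell and those not called alike. After the mean of each state was removed, Pearson's r across the 15 libraries was 0.91 for C1S and CFI, 0.86 for C1R and C1S, and 0.73 for C1R and CFI. It was 0.62 for C3 and CFB, 0.61 for C1S and C3, 0.61 for CFB and CFI, and 0.56 for C1S and CFB. Weaker values were 0.51 for C1R and C3, 0.44 for C3 and CFI, and 0.35 for C1R and CFB. The surface regulators shared less, with r = 0.60 for CD46 and CD55, 0.26 for CD55 and CD59, and -0.29 for CD46 and CD59. C1R and CD55 gave -0.44. These are descriptions of 15 points that share libraries, depth and pools of ewes, and r was not computed for each state apart. The HM pool 1 lactation library was the highest of lactation for C1S, C3, CFB and CFI. Without it r was 0.88 for C1S and CFI, and the other pairs of members were not computed without it. In late pregnancy CFI was highest in MM pool 3 at 119 CPM, where CFB stood at 6.27 CPM in a range of 5.12 to 9.70.

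Of all 13345 genes, those most like C1S were CFI, RFC5 (r = 0.91) and DSEL (0.91), and those most like CFI were CASP9 (r = 0.94), C1S and KLF10 (0.91). C1R was most like KIF15 (0.87), EPHB4 (0.87) and MASTL (0.87), and CD59 most like TIAL1 (0.88), PHYHD1 (0.82) and LOC101106160 (0.81). For C3 the 3 genes were LOC101113831 (0.94), LOC101111946 (0.92) and GEMIN2 (0.91). CD46 was most like GTF3C4 (0.86), GNA13 (0.86) and N4BP2 (0.85), and CD55 most like LOC101123518 (0.86), LOC101117638 (0.85) and LOC101102224 (0.83).

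The genes most like CFB were HP, which encodes haptoglobin, an acute phase protein (r = 0.89), CHI3L1 (0.87) and LOC101117281 (0.85). HP stood at 186 CPM in the HM pool 1 lactation library, where CFB was also high, and at 2.64 to 12.8 CPM in the other lactation libraries. CHI3L1 stood at 196 CPM there and at 40.3 to 72.0 CPM in the others. In late pregnancy HP ranged from 2.12 to 19.4 CPM and CHI3L1 from 227 to 363 CPM. Of the lactation libraries, HM pool 1 also had the fewest counted reads (9014506) and the lowest share of milk protein reads (71.3%). Without that library r with CFB was 0.65 for HP, 0.53 for CHI3L1 and 0.75 for LOC101117281 over 14 libraries. The same library was the highest of lactation for C1S, C3 and CFI, and the HM pool 2 lactation library was the lowest for C1R, C1S, C3 and CFB and the highest for CD46 and CD55.

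No member was called between the dam nutrition groups. Over the 9 late pregnancy libraries, 0 of 13747 genes tested (0%) were called between the 3 dam nutrition groups by edgeR, with 571 at an unadjusted p under 0.05, and 0 of 19097 without the filter on low counts, with 804 at that p. No member had an unadjusted p under 0.05, and the lowest was 0.0528 for CFI (adjusted p = 1.00), whose means were 74.2, 97.1 and 83.2 CPM in the HM, MM and LM pools.

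For the interaction of dam nutrition with state, 0 of 13345 genes (0%) were called by edgeR, with 876 at an unadjusted p under 0.05. CD55 was the only member among these (unadjusted p = 0.0409, adjusted p = 0.740). CD55 in lactation stood at 28.4 and 36.04 CPM in the HM pools, 23.0 and 30.9 in the LM pools, and 16.0 and 19.2 in the MM pools, against 3.61 ± 0.52, 2.98 ± 0.53 and 3.098 ± 0.37 CPM (SD, n = 3 each) in late pregnancy. With 2 lactation pools per group, the design gives little precision here.

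The rest of the pathway was read from a list of 46 other complement genes, of which 39 were found. Of these, 24 passed the filter on low counts and were tested. Of these 24, 6 were higher and 10 lower in lactation, 8 were not called, and 10 had no overlap between the states, with a median log2 change of -0.29 beside -0.03 for all genes. The 16 called genes are close to the 68.4% called of all genes, and the 10 without overlap close to the 40.2% of all genes, so neither count is a result about the list. With library size alone only C5 and C9 of the 6 stayed higher.

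The terminal components held the largest changes of the list. C5, from which the anaphylatoxin C5a and the first piece of the membrane attack complex are cut, ranged from 11.1 to 37.5 CPM in late pregnancy with a median of 17.7, and from 260 to 562 CPM in lactation with a median of 375. C9, which forms the ring of that complex, ranged from 0.74 to 5.76 CPM with a median of 1.36 in late pregnancy, and from 305 to 385 CPM with a median of 323 in lactation. The states did not overlap for either gene. For C5 the log2 change was 4.10 with an SE of 0.27 (edgeR, adjusted p = 4.35e-11), and that of C9 was 7.27 with an SE of 0.28 (adjusted p = 1.75e-14), a 154-fold difference. Their intron reads rose by 3.94 for C5 (adjusted p = 1.32e-11) and 6.34 for C9 (adjusted p = 3.67e-18).

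The other genes of the membrane attack complex were low or not detected. C7 fell by 0.66 with an SE of 0.20 (edgeR, adjusted p = 0.00777), from a mean of 3.91 to 2.29 CPM. C6 had at most 1 read in any library, and C8A and C8B had 0 reads in all 15 libraries. CD59, the inhibitor of this complex, rose in TMM-scaled CPM as given above, and fell with library size alone, where C5 and C9 stayed higher.

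The recognition subunits of C1 fell with the proteases C1R and C1S. C1QA fell by 0.98 with an SE of 0.12 (edgeR, adjusted p = 6.73e-07), C1QB by 1.24 with an SE of 0.11 (adjusted p = 6.91e-09) and C1QC by 1.14 with an SE of 0.11 (adjusted p = 2.95e-08), none of them with overlap between the states. SERPING1, listed as LOC101121454 and encoding the inhibitor of C1r and C1s, fell by 1.00 with an SE of 0.10 (adjusted p = 2.07e-08), from 58.2 to 82.0 CPM in late pregnancy to 29.0 to 46.5 CPM in lactation. All genes of the C1 complex and its inhibitor were thus lower in lactation under every scaling tried. C2 at -0.42 (adjusted p = 0.108) and C4A at 0.15 (adjusted p = 0.416), the substrates of C1s, were not called. C1RL, a relative of C1R listed as LOC101107516, was higher by 0.58 (adjusted p = 0.00231) with TMM scaling and lower with library size alone.

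Of the lectin route, the proteases MASP1 and MASP2 were higher in lactation by 0.69 (edgeR, adjusted p = 1.90e-05) and 0.52 (adjusted p = 3.94e-04) with TMM scaling, and lower with library size alone. The scavenger receptor COLEC12 fell by 1.37 with an SE of 0.15 (adjusted p = 8.30e-08). COLEC10 and COLEC11 were below the filter, and MBL2, which encodes mannose-binding lectin, had 0 reads in all libraries. Of the alternative route, CFD at -0.04 (adjusted p = 0.786) and CFP at 0.03 (adjusted p = 0.922), which encode factor D and properdin, were not called, as CFB was not.

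Among the receptors and binding proteins, C3AR1, the receptor of C3a, fell by 1.58 (edgeR, adjusted p = 1.53e-05), ITGAX by 0.86 (adjusted p = 6.77e-05), C1QBP by 0.84 (adjusted p = 5.72e-10) and CD93 by 0.35 (adjusted p = 0.0149). ITGAM, a chain of the phagocyte receptor for inactivated C3b, was higher by 1.01 (adjusted p = 0.00309) with TMM scaling and lower with library size alone. Both C3AR1 and ITGAM rest on few reads. C3AR1 had at most 55 in a late pregnancy and 10 in a lactation library. ITGAM had at most 26 and 20, and its ranges overlapped. C5AR1 at -0.08, ITGB2 at -0.09, PTX3 at -0.56 and the fluid-phase regulator CLU at -0.23 were not called. CLU, which encodes clusterin, stood at 950 ± 200.03 CPM (SD, n = 9) in late pregnancy and 809 ± 226 CPM (SD, n = 6) in lactation.

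Of the 15 genes found but below the filter, 9 had at most 3 reads in every library (C6, C8A, C8B, MBL2, COLEC11, VTN, CPN1, CPN2 and CRP). The others included COLEC10, C4BPA, C4BPB, CR2 and VSIG4. C4B, C8G, FCN1, FCN2, CR1 and C5AR2 were among those not matched to a feature and were not analysed here.

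**Figure D5:**
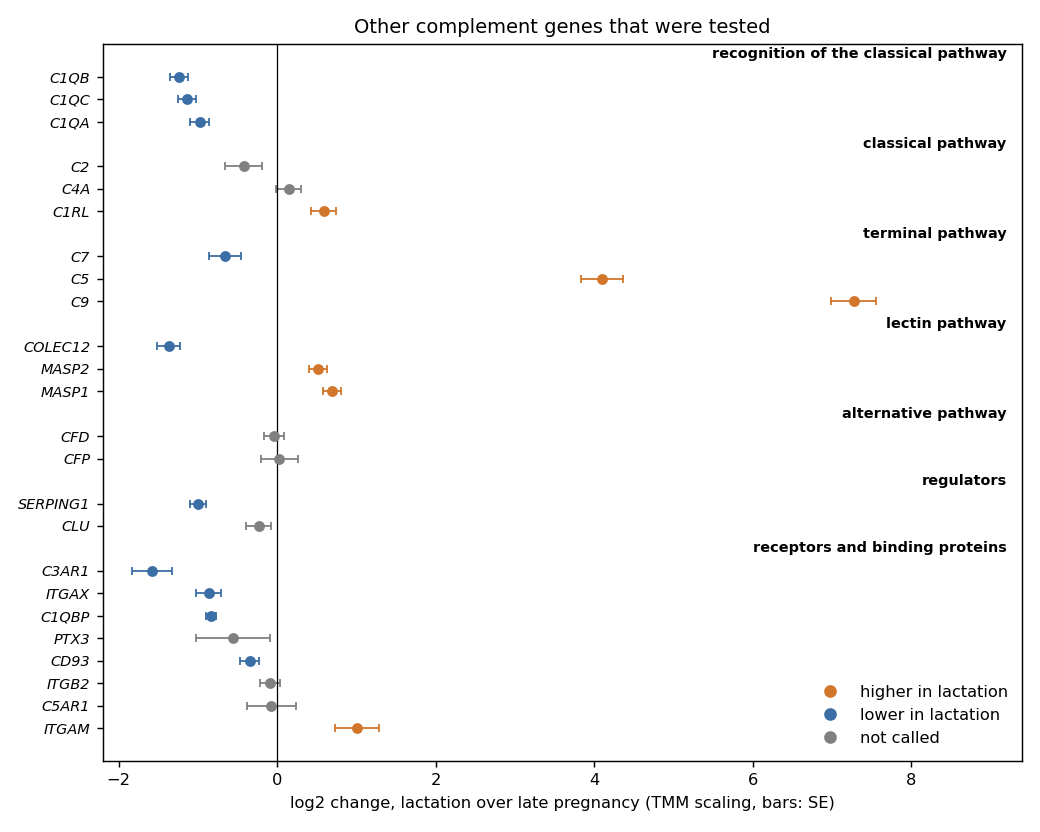
Log2 change from late pregnancy to lactation with TMM scaling (horizontal axis, bars for the SE) of the 24 tested genes of the wider complement list, grouped by role and coloured by call. C5 at 4.10 and C9 at 7.27 stand apart, and the C1q genes and SERPING1 lie between -1.24 and -0.98; with library size alone only C5 and C9 stayed higher.

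A list of 10 genes of signalling routes known to induce complement genes in epithelial cells was read in the same fit. All 10 were tested, and 4 were higher, near the 33.1% of all genes, so the count is not a result about the list. IRF1 fell by 2.41 with an SE of 0.13 (edgeR, adjusted p = 4.14e-12) and IFNGR1, a chain of the interferon gamma receptor, by 0.57 (adjusted p = 6.89e-06). IL6R rose by 1.53 (adjusted p = 9.00e-11), RELA by 0.89 (adjusted p = 1.93e-11), CEBPD by 0.32 (adjusted p = 0.0137) and NFKB1 by 0.19 (adjusted p = 0.00378) with TMM scaling, and all 4 turned lower with library size alone. STAT3, CEBPB and TNFRSF1A were not called.

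In bulk tissue, fewer cells of a type and less RNA per cell cannot be told apart, and markers of several cell types moved with the members. The counts of markers stand beside 35.2% of all genes tested called lower and 33.1% called higher in lactation. Of 6 fibroblast markers 5 were lower in lactation, with a summed level of 1311 to 2092 CPM in late pregnancy and 618 to 998 CPM in lactation, beside the decreases of C1R, C1S and CFI. Of 5 endothelial markers found, 4 were lower (198 to 272 against 138 to 196 CPM), and all 5 T cell markers were lower (36.3 to 58.7 against 12.1 to 18.3 CPM). Of 5 macrophage markers found, AIF1 and CSF1R were lower and CD14 was higher (summed 55.9 to 69.3 against 51.9 to 65.5 CPM), beside the decrease of the C1q genes.

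Of 6 luminal epithelial markers 4 were higher with TMM scaling (1417 to 1736 against 2290 to 2551 CPM). Of 6 myoepithelial markers 4 were higher and 1 lower (668 to 750 against 653 to 983 CPM). They stand beside the TMM-scaled increases of CD46, CD55 and CD59, and of C5, C9, C1RL, MASP1, MASP2 and ITGAM in the wider list. All 8 of these markers called higher turned lower with library size alone. With TMM scaling, 33.1% of all genes tested were called higher and 35.2% lower. Hepatocyte markers summed to 4.79 to 13.6 CPM in late pregnancy and 2.11 to 3.43 CPM in lactation, 2 of the 3 tested were lower, and ALB had at most 1 read in a library, beside 305 to 385 CPM of C9 in lactation. Adipocyte markers (5.03 to 24.4 against 6.15 to 15.5 CPM) had 2 tested and neither called. Of B and plasma cell markers 1 was tested and was lower (2.08 to 3.71 against 0.70 to 2.86 CPM), of neutrophil markers 1 of 2 tested was lower (1.28 to 2.35 against 0.57 to 2.03 CPM), and the erythrocyte marker ALAS2 was below the filter. No marker found was at 0 in all libraries. The part of these cell types in the changes of the members was not tested.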

How the data were processed

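The authors sequenced pooled mammary RNA with an unstranded kit, placed paired reads on the sheep genome in CLC Genomics Workbench and deposited counts of reads on exons and whole genes. The assembly is Oar v3.1 per the labels, and the methods name another version. The deposited RPKM come from those counts, and the deposited normalized values (score, quantile-normalized RPKM) from the RPKM. Deposited fold changes and p-values of the authors' own test were not used.

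Exon reads (whole-gene reads for features without a transcript) were tested with edgeR 4.0.16 in R 4.3.3 (filterByExpr, TMM, quasi-likelihood F-test, Benjamini-Hochberg over all genes tested). Intron reads are whole-gene less exon reads and had TMM factors of their own. Alternatives used DESeq2 1.42.0 and limma 3.58.1, with a pseudocount of 1 on RPKM. The fit was tested on simulated data. Ratios were tested by exact permutation with scipy 1.17.1. Counting ignored strand, so antisense reads are included. A gene was at the floor with no more than 3 reads in any library of a state.

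Named genes are the 8 members, 46 other complement genes, 10 inducers, cell type markers and the 3 genes most like each member by r of log2 CPM (prior count 2). Members and lists were chosen with earlier results of these data known. Values of single libraries were named after they were seen. Some listed genes are not reported here. Promoter and protein sequences were not analysed here.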

Additional observations from a re-analysis of the deposited data

Results flagged for a closer look

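In 18 groups of library values (8 members and LOC101108131 in each state), 2 held a library whose gap to its neighbour took a large share of the range of its group, where chance gives about 1 group in 20. CFB in lactation was 22.9 CPM in the HM pool 1 library against 8.46 CPM in the next, a gap of 0.80 of the range. CFI in late pregnancy was 119 CPM in the MM pool 3 library against 91.0 CPM in the next, a gap of 0.50 of the range. Leaving out the HM pool 1 library moved the log2 change of CFB from 0.32 to -0.08, and leaving out any 1 library kept CFI between -2.90 and -2.57.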

How the results depend on the processing

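Scaling decided the direction of the smaller changes. With library size alone 1 member was called higher and 7 lower, 2 and 22 of the other complement genes, and 352 and 12705 of all genes. On log2(RPKM + 1) with limma these were 1 and 7, 2 and 22, and 379 and 12560. The log2 change was then -1.60 and -1.49 for C3, -1.56 and -1.06 for CFB, -1.50 and -1.23 for CD46, and -1.24 and -1.11 for CD59. On quantile-normalized RPKM C3 was -0.006 and LOC101108131 -0.48 (limma, adjusted p = 0.0167). In the libraries with lane 7 in the name LOC101108131 was 0.026. Upper quartile scaling called 63.7% of the called genes lower beside 51.6% with TMM, its median being -0.18. CD46 and CD59 stayed called higher with upper quartile scaling, at 0.26 and 0.51. On quantile-normalized RPKM they were also called higher, at 0.26 and 0.31 (limma, adjusted p = 0.0107 and 0.00111). DESeq2 kept the call of all 8 members.

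Leaving out each of the 15 libraries kept CD46, CD55 and CD59 higher and C1R, C1S and CFI lower in every case, and C3 became called higher in 3 cases. The pairs of members past the threshold numbered 22 to 24, and CFB ranged from -0.075 to 0.44. Pools of the same dam nutrition group and number correlated between -0.03 and 0.09 across the states. The labels do not say that they hold the same ewes, so the numbers were not taken to pair them. With that replicate block 8464 genes were called beside 9122, and C3 was 0.35 (adjusted p = 0.017). Reads were counted without molecular identifiers, and depth limits the precision at 41 to 106 exon reads of CD55 per late pregnancy library and 27 to 104 of CFB per lactation library.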
